A study of Xenopus laevis and Xenopus tropicalis with 12 samples.

Results

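The mRNAs of 9 genes of maternal mRNA deadenylation and repression were followed in the animal and vegetal hemispheres of oocytes from the frogs Xenopus laevis and Xenopus tropicalis. They were chosen by symbol in the deposited annotation, and each of tob1, tob2, btg4, cnot7, cnot6l, parn, pum2, bicc1 and celf1 had 1 gene model, 9 of 28165 models in all. The series held 12 RNA-seq libraries of manually dissected animal or vegetal oocyte hemispheres, and the labels name no treatment or genotype. In X. laevis, 4 animal and 4 vegetal libraries came from stage VI oocytes of females A and B, with batches A_t1 and A_t2 from the first and B_t1 and B_t2 from the second. In X. tropicalis, 2 animal and 2 vegetal libraries came from fully grown oocytes of females 1 and 2. The labels give neither the strain or age of the frogs nor the number of oocytes in a library.

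Vertebrate oocytes complete maturation largely without new transcription, so gene output is then set largely by which stored mRNAs keep, lose or regain their poly(A) tails. Deadenylases shorten the tail: CNOT7 and CNOT6L are catalytic subunits of the CCR4-NOT complex, and PARN is a separate poly(A)-specific ribonuclease. TOB and BTG proteins are adaptors that bind the CNOT7 type of subunit and bring the complex to mRNAs, while CELF1, PUM2 and BICC1 bind RNA and select the messages to be deadenylated or repressed. Several messages stored in the vegetal hemisphere of the frog oocyte encode germ plasm and germ layer factors.

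The 9 mRNAs were not distributed alike. The mRNAs of bicc1, tob2, parn and btg4 were higher in vegetal hemispheres in both species, and that of pum2 was higher in animal hemispheres in both. With no pairing only bicc1 still passed in X. tropicalis. In X. laevis the pum2 call was lost without batch A_t2, without B_t2 and with female A alone. The mRNA of tob1 passed as animal in X. laevis and not in X. tropicalis, and that of cnot6l in X. tropicalis and not in X. laevis, but neither difference between the species passed (adjusted p = 0.226 and 0.617, edgeR). Neither cnot7 nor celf1 passed the test in either species. In X. laevis the largest differences among the 9 were those of bicc1 (7.63-fold) and tob2 (7.60-fold), and in X. tropicalis those of bicc1 (22.8-fold) and parn (1.74-fold).

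Of the 9 mRNAs, 4 passed as vegetal and 2 as animal in X. laevis, at an adjusted p under 0.05 (edgeR quasi-likelihood test, hemispheres paired within a batch, Benjamini-Hochberg over 14517 models). Over all models tested in X. laevis, 27.7% passed in either direction, 13.2% as vegetal and 14.4% as animal. The X. tropicalis counts were also 4 vegetal and 2 animal, where 33% of 12916 models passed, 15.6% as vegetal and 17.3% as animal. At least 2-fold, the vegetal members were 3 in X. laevis (bicc1, tob2 and parn; 3.01% of all models) and 1 in X. tropicalis (bicc1; 3.29%), and no member was animal (3.58% and 3.63%). The 9 had a median log2 difference of -0.00 in the first species and 0.16 in the second, against -0.01 over all models in each species. Scaled by library totals alone, the X. laevis calls over all models moved from 1922 vegetal and 2095 animal to 1442 and 2619, and the X. tropicalis calls from 2020 and 2236 to 1436 and 2743. A difference between hemispheres is one of shares of the RNA in each library, so a change in a given mRNA and an opposite change in all other RNA cannot be told apart, nor can numbers of cells and RNA per cell in bulk material.

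Library totals ranged from 30416352 to 45235154 counts in X. laevis and from 7772801 to 28392285 in X. tropicalis. Levels are given in CPM, read counts scaled to a common library size. A count of 0 allowed up to 0.0663 to 0.0986 CPM in the X. laevis libraries and 0.106 to 0.386 CPM in those of X. tropicalis (3 counts each), for counting error only. The lowest count of a member was 25 (cnot7 in the vegetal library of X. tropicalis female 1). Of 10 oocyte markers 9 were found, and all 9 were above 1 CPM in each group, with sums from 1288 to 2742 CPM per library. All 6 known vegetal and all 3 known animal mRNAs used to check the hemisphere labels went with the labels in both species. By ratio of the sums, the contrast was weakest in X. laevis batch B_t1 for both the vegetal and the animal ones. The vegetal ones summed to 218 CPM in its animal library (132 to 161 in other batches) and 4378 CPM in its vegetal library (4959 to 6634). The animal ones summed to 61.3 CPM in its vegetal library (20.6 to 43.1 in other batches) and to 105 CPM in its animal library, within the range of the others (58.7 to 135). Of 10 follicle cell markers, 8 were under 1 CPM in both X. laevis groups. The animal libraries had a sum over all 10 of 81.5 to 155 CPM, and the vegetal ones had 296 to 368 CPM. Almost all of it was cyp17a1, a steroid hydroxylase (means of 118 and 325 CPM). The only other marker above 1 CPM, star, went the other way (2.12 and 1.39 CPM). Those under 1 CPM went in both directions, as with foxl2 (0.415 and 0.516 CPM) and inha (0.177 and 0.0688 CPM). The higher vegetal sum was thus that of a single gene and was not shared by the markers as a set. In X. tropicalis the same sum was at most 2.29 CPM in any library and foxl2, fshr, cyp17a1 and hsd3b1 had no count. The summed blood and immune markers lay between 11.7 and 17.4 CPM in X. laevis and between 14.95 and 21.2 CPM in X. tropicalis. The summed connective tissue markers were 46.5 to 105.5 CPM in animal and 80.0 to 174 CPM in vegetal libraries of X. laevis, mainly fn1, and 63.0 to 79.0 CPM in X. tropicalis. The part of these cells in the hemisphere differences was not tested.

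**Figure D1:**
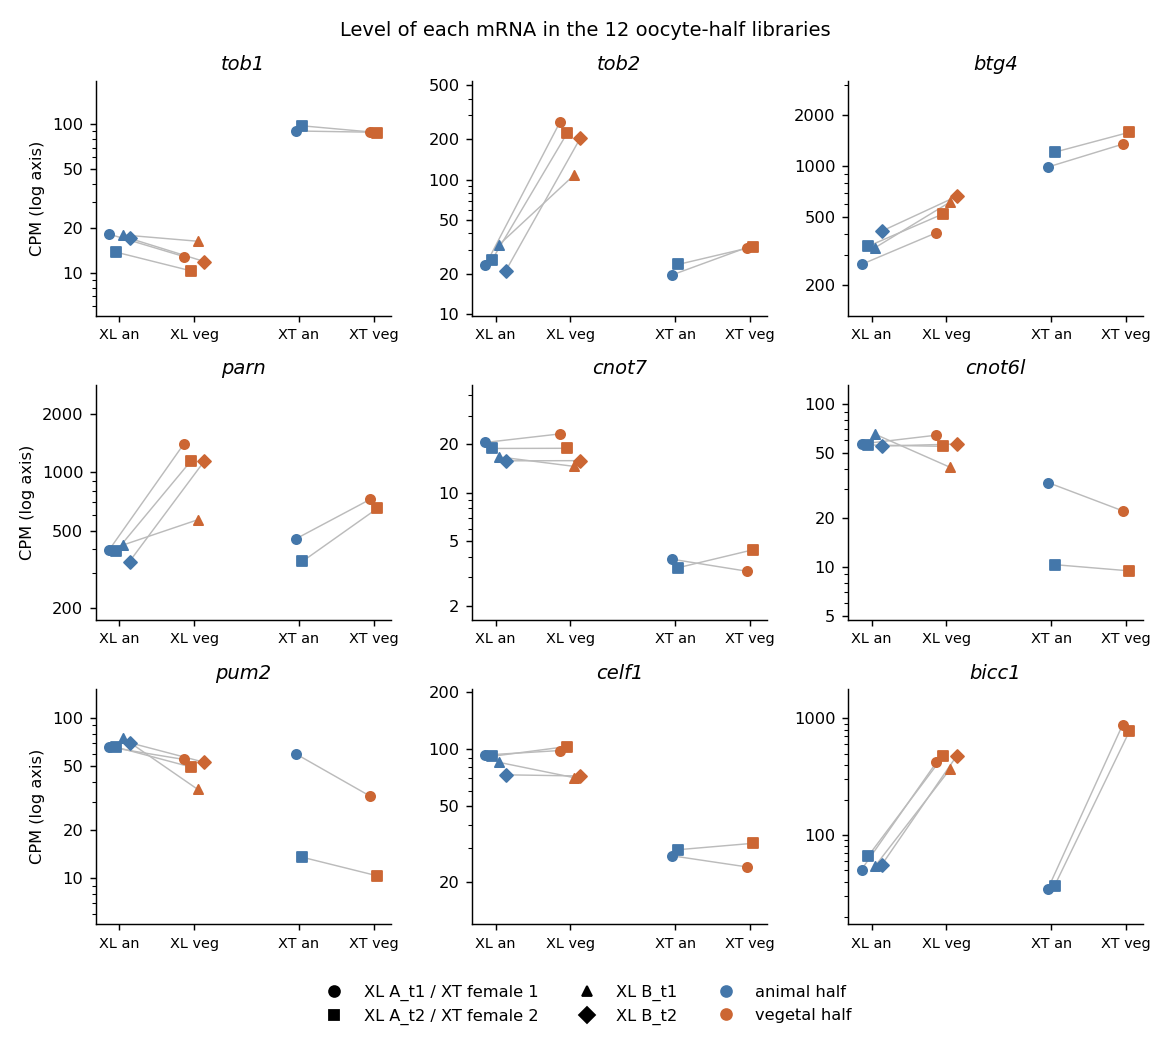
Level of each of the 9 mRNAs in CPM (log axis) in the 12 libraries, with a grey line joining the hemispheres of 1 batch (X. laevis, XL) or 1 female (X. tropicalis, XT). The vegetal points of bicc1 lie above all animal points in both species. The vegetal library of batch B_t1 (triangle) is the lowest of the X. laevis vegetal libraries in all members but tob1 and btg4.

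The 3 TOB/BTG adaptors did not go the same way. The mRNA of tob2 (model Xetrov72010520), an adaptor that also binds poly(A)-binding protein, was at 23.2 CPM (A_t1), 25.5 (A_t2), 32.8 (B_t1) and 21.0 CPM (B_t2) in X. laevis animal libraries and at 269.8, 220.3, 107.5 and 204 CPM in the vegetal libraries of the same batches. Every vegetal library lay above every animal library, and B_t1 had both the lowest vegetal and the highest animal value. The hemispheres did not overlap, with vegetal higher, in 9.25% of all X. laevis models tested, and bicc1 and parn were the only other members among them; in either direction it was 21.3%. The log2 difference of tob2 was 2.93 ± 0.28 (SE, 4 pairs; adjusted p = 0.000257, edgeR). It lay between 1.71 (B_t1) and 3.54 (A_t1) in single pairs and was 3.33 ± 0.11 without batch B_t1.

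In X. tropicalis the same gene showed a small difference. The level of tob2 was 19.6 and 23.5 CPM in the animal libraries of females 1 and 2 and 31.3 and 31.8 CPM in the vegetal ones. The ranges did not overlap, as in 17.5% of all X. tropicalis models with vegetal higher and 35.7% in either direction, and the log2 difference was 0.53 ± 0.11 (2 pairs, adjusted p = 1.09e-05, edgeR, pairs within females). With no pairing its adjusted p was 0.396 (edgeR).

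The related tob1 (Xetrov72017625) went the other way from tob2 in X. laevis. Its animal levels were 18.3 CPM (A_t1), 13.9 (A_t2), 18.1 (B_t1) and 17.2 CPM (B_t2), and its vegetal levels 12.9, 10.4, 16.4 and 11.99 CPM. The ranges overlapped, but the vegetal library was the lower of each of the 4 pairs. The log2 difference was -0.39 ± 0.11 (adjusted p = 0.028, edgeR). That call was lost without batch A_t1 (adjusted p = 0.0838, edgeR), without A_t2 (0.142), without B_t2 (0.12) and with no block (0.183). In X. tropicalis tob1 was at 90.4 and 97.9 CPM in animal and 88.7 and 88.2 CPM in vegetal libraries. The vegetal values lay just under the animal ones, as in 18.1% of all X. tropicalis models with animal higher, but the log2 difference of -0.10 ± 0.07 did not pass (adjusted p = 0.311, edgeR; 95% interval -0.24 to 0.04).

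The third adaptor, btg4 (Xetrov72026940), is largely restricted to oocytes and is needed in mouse for the decay of maternal mRNA after meiosis resumes. Its X. laevis animal levels were 265 CPM (A_t1), 339 (A_t2), 332 (B_t1) and 416 CPM (B_t2), and its vegetal levels 407, 525, 615 and 664 CPM. The ranges met at their edges, since the highest animal library (B_t2) exceeded the lowest vegetal one (A_t1), while every pair had the vegetal hemisphere higher. The pairs were close to each other, from 0.62 to 0.89 on the log2 scale, with a fitted difference of 0.70 ± 0.08 (adjusted p = 0.000522, edgeR). In X. tropicalis btg4 was at 989.5 and 1210 CPM in animal and 1349 and 1585 CPM in vegetal libraries. The hemispheres did not overlap and both pairs were near the fitted log2 difference of 0.42 ± 0.06 (adjusted p = 5.73e-10, edgeR; 0.475 with no block).

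**Figure D2:**
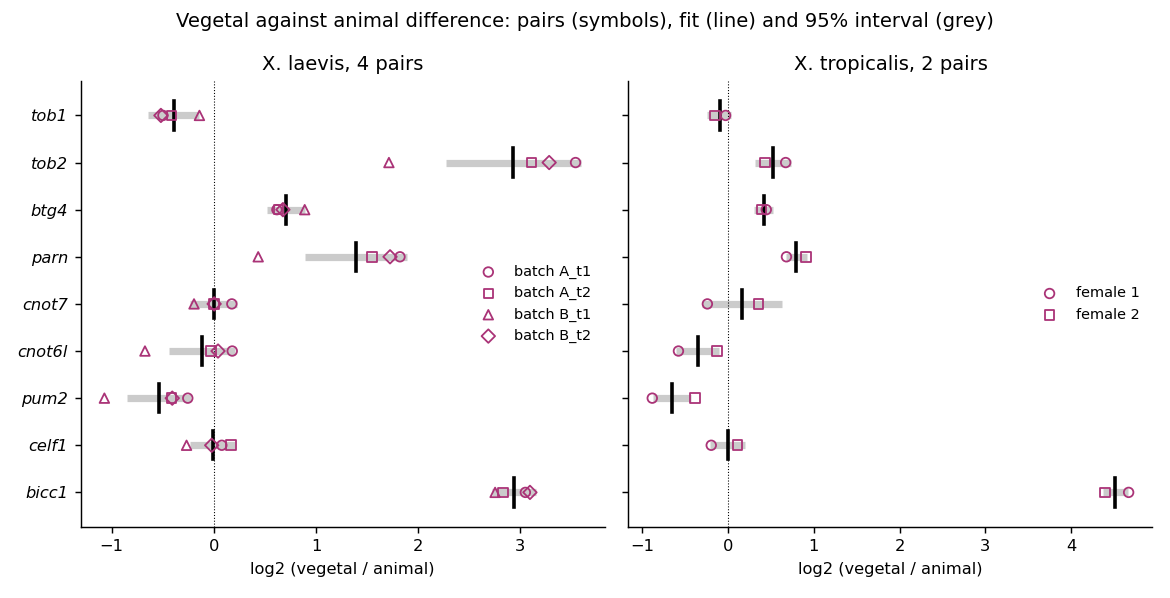
Log2 ratio of vegetal to animal level for each of the 9 genes, with a symbol for each pair of libraries, a black line for the fitted difference and a grey bar for its 95% interval. In X. laevis the pair from batch B_t1 lies left of the other 3 for tob2, parn, cnot6l and pum2, and by less for celf1, cnot7 and bicc1. The 4 pairs of bicc1 lie between 2.75 and 3.09.

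Of the deadenylases, parn differed between the hemispheres and the CCR4-NOT catalytic subunits differed little. PARN shortens tails in the Xenopus oocyte as part of the machinery around CPEB. In X. laevis the parn mRNA (Xetrov72004885) was at 398 CPM (A_t1), 392 (A_t2), 420.4 (B_t1) and 346 CPM (B_t2) in animal libraries and at 1407, 1143, 568 and 1142 CPM in vegetal libraries. The hemispheres did not overlap, and the vegetal level of B_t1 was nearer to the animal libraries than to the other vegetal ones. The log2 difference was 1.39 ± 0.22 (adjusted p = 0.00284, edgeR), with 0.43 in the B_t1 pair, 1.55 to 1.82 in the other 3, and 1.72 ± 0.09 without B_t1. In X. tropicalis parn was at 452 and 346 CPM in animal and 726 and 650 CPM in vegetal libraries. The hemispheres did not overlap, and the pairs were at 0.68 (female 1) and 0.91 (female 2) on the log2 scale. The fitted difference was 0.80 ± 0.06 (adjusted p = 4.59e-26, edgeR, and 0.149 with no block). Its SE and p-value took their spread mainly from all models.

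The mRNA of cnot7 (Xetrov72021865), the catalytic subunit that TOB and BTG proteins bind, was at 15.8 to 20.5 CPM in X. laevis animal and 14.6 to 23.1 CPM in vegetal libraries. The ranges lay on top of each other, and the log2 difference of -0.00 ± 0.10 had a 95% interval of -0.23 to 0.23 (adjusted p = 0.995, edgeR). In X. tropicalis cnot7 was low, at 3.88 and 3.44 CPM in animal and 3.27 and 4.44 CPM in vegetal libraries, from 25 to 99 counts. The pairs had opposite signs (-0.24 and 0.36), and the interval of the log2 difference, -0.30 to 0.63, was wide.

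The mRNA of cnot6l (Xetrov72024432), a catalytic subunit of the CCR4 type, was at 57.0 CPM (A_t1), 56.2 (A_t2), 65.5 (B_t1) and 55.4 CPM (B_t2) in X. laevis animal libraries and at 64.6, 55.1, 41.0 and 57.0 CPM in vegetal ones. Outside batch B_t1 all 6 libraries lay between 55.1 and 64.6 CPM. The log2 difference of -0.12 ± 0.14 did not pass (adjusted p = 0.558, edgeR; 95% interval -0.44 to 0.21). In X. tropicalis the females differed more than the hemispheres: cnot6l was at 33.0 CPM in the animal and 22.1 CPM in the vegetal library of female 1, against 10.3 and 9.45 CPM in those of female 2. The difference within females was -0.35 ± 0.13 (adjusted p = 0.0223, edgeR), with -0.58 in female 1 and -0.13 in female 2. It was not called by DESeq2 (adjusted p = 0.377) or with no block (0.977).

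Among the RNA-binding proteins, bicc1 had the largest and steadiest vegetal enrichment. BICC1 carries KH domains and represses maternal messages, cripto mRNA among them in Xenopus. In X. laevis its mRNA (Xetrov72025127) was at 50.7 CPM (A_t1), 66.4 (A_t2), 54.2 (B_t1) and 55.7 CPM (B_t2) in animal and at 419.8, 472.5, 365 and 475 CPM in vegetal libraries. No vegetal library came near an animal one, and the 4 pairs spanned 2.75 to 3.09. The log2 difference was 2.93 ± 0.09 (adjusted p = 2.65e-06, edgeR). In X. tropicalis bicc1 was at 34.7 and 36.9 CPM in animal and 884.5 and 776 CPM in vegetal libraries. The log2 difference of 4.51 ± 0.07 held with no block (4.53 ± 0.15, adjusted p = 0.0039, edgeR). By size of difference, 0.517% of X. laevis models and 0.0852% of X. tropicalis models were more vegetal than bicc1.

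The mRNA of pum2 (Xetrov72004428), a Pumilio repressor that binds sites in the untranslated regions of target messages, was lower in the vegetal hemisphere. In X. laevis it was at 65.8 CPM (A_t1), 65.9 (A_t2), 75.5 (B_t1) and 70.2 CPM (B_t2) in animal and at 55.1, 49.5, 35.9 and 53.0 CPM in vegetal libraries. The hemispheres did not overlap, as in 12% of all X. laevis models with animal higher, and B_t1 again had the extreme value on both sides. The log2 difference was -0.53 ± 0.14 (adjusted p = 0.0242, edgeR). Without B_t1 it was -0.34 ± 0.09 (adjusted p = 0.0171, edgeR), and the call was lost without A_t2 (0.0943) and without B_t2 (0.0545). In X. tropicalis pum2 was at 59.9 and 13.5 CPM in the animal and 32.5 and 10.4 CPM in the vegetal libraries of females 1 and 2. Each female was lower in the vegetal hemisphere, but the vegetal library of female 1 exceeded the animal one of female 2. The pairs were at -0.88 (female 1) and -0.38 (female 2) on the log2 scale. The paired log2 difference of -0.65 ± 0.11 passed (adjusted p = 2.37e-07, edgeR), and it did not with no block (0.954). Its SE and p-value took their spread mainly from all models and hardly from these pairs.

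The mRNA of celf1 (Xetrov72009140), known in Xenopus as EDEN-BP for its binding to the embryo deadenylation element, did not differ detectably between hemispheres. It was at 73.2 to 93.1 CPM in animal and 70.8 to 103 CPM in vegetal libraries of X. laevis, with a log2 difference of -0.01 ± 0.09 (adjusted p = 0.95, edgeR; 95% interval -0.23 to 0.21). In X. tropicalis it was at 27.4 and 29.5 CPM in animal and 24.0 and 31.9 CPM in vegetal libraries, with an interval of -0.21 to 0.20.

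Batch B_t1 stood apart in several members. In X. laevis, the vegetal over animal ratio of the B_t1 pair lay below the lowest of the other 3 pairs by 1.40 for tob2, 1.11 for parn, 0.66 for pum2 and 0.65 for cnot6l on the log2 scale. Of all X. laevis models tested, 0.468%, 1.09%, 4.19% and 4.39% lay below by at least as much. A gap of at least 0.5 below was found for 7.23% of models in B_t1, against 1.18% to 2.42% in the other batches. Smaller gaps below were those of celf1 (0.25), cnot7 (0.20) and bicc1 (0.08), while btg4 and tob1 had their highest ratio in B_t1. What distinguished the B_t1 hemispheres was not tested.

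The X. laevis females did not overlap for 5 of the 9 members in the vegetal hemisphere, where 52.8% of all models did not overlap, and for 3 of 9 in the animal hemisphere, where 65.5% did not. The members' shares were near or under those of all models, and with 2 batches of 1 frog each this describes 2 animals. Vegetal levels in female B minus female A, as mean log2 CPM, were -0.49 for celf1, -0.46 for cnot7 and 0.47 for btg4. They were -0.72 for tob2 and -0.66 for parn, but -0.26 and -0.15 without batch B_t1 and -1.18 and -1.16 without B_t2, a calculation added after seeing the data. Leaving out A_t1 made the btg4 value 0.28. In the animal hemisphere the values were -0.27 for cnot7, -0.23 for celf1 and 0.14 for pum2; without B_t2 that of celf1 was -0.12, and without B_t1 that of pum2 was 0.09. The test of a difference in the hemisphere effect between females A and B called no member and 0 of all 14517 models, while 1.75% had an unadjusted p under 0.05 (edgeR). Without batch B_t2, which left B_t1 as the single pair of female B and took the spread from female A and from all models, 1.48% of models passed; tob2 (-1.61 ± 0.27, adjusted p = 9.69e-06) and parn (-1.24 ± 0.28, adjusted p = 0.0027) were called as less vegetal in female B (edgeR), and without B_t1 the differences were -0.07 and 0.02.

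In X. tropicalis, pum2 and cnot6l stood out between females, with 1 library per female and hemisphere. Totals of the animal and vegetal libraries were 11768136 and 7772801 counts in female 1 and 28392285 and 21699080 in female 2. Female, library and depth therefore cannot be told apart here. Levels of pum2 were 4.40-fold higher in female 1 than in female 2 in the animal hemisphere and 3.11-fold higher in the vegetal hemisphere, and that of cnot6l 3.17-fold and 2.32-fold higher. Of all models tested, 1.32% and 2.75% differed more than pum2 in the animal and vegetal hemisphere, and 3.15% and 6.35% more than cnot6l. The other 7 members differed by at most 1.35-fold between the females in either hemisphere.

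Over the 12 libraries, centred on each species, the member pairs with the highest correlations of log2 CPM were pum2 with cnot6l (r = 0.961) and tob2 with parn (r = 0.936). This is a description over libraries that share hemisphere, female, batch and depth, and both pum2 and cnot6l differed between the X. tropicalis females. Among 7323 other named models with at least 5 CPM in both species, the closest to tob2 were p2rx4 (r = 0.988), ppp1r2 (0.986) and dsc3 (0.984). Those closest to parn were pbx2 (0.974), cenpe (0.972) and camsap1l1 (0.969). Those closest to bicc1 were pat (0.996), rtn3 (0.993) and raph1 (0.991). Their log2 differences were 6.13, 3.67 and 2.75 in X. tropicalis and 4.09, 2.57 and 1.61 in X. laevis. They were picked for their likeness to bicc1 over these same libraries, so their larger X. tropicalis differences are no separate evidence of a species difference.

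The hemisphere effect was then compared between the species in 1 model. Of the 9 members, 2 passed, 1 in each direction, where 12.5% of 11688 models passed, 6.7% as more vegetal in X. laevis and 5.77% as more vegetal in X. tropicalis (2.88% and 2.75% at least 2-fold, as both members were). The mRNA of tob2 was more vegetal in X. laevis, by 2.38 ± 0.47 on the log2 scale (adjusted p = 0.0117, edgeR). Its difference was higher in each of the 4 X. laevis pairs than in either X. tropicalis pair. A shift in this direction was not particular to tob2. The 6 known vegetal mRNAs of the label check had a median of 1.03 in the same test, against 0.03 over all models. Of these 6, 2 passed as more vegetal in X. laevis and 0 as more vegetal in X. tropicalis (edgeR). Whether the tob2 difference is part of a wider one was not tested. Without X. tropicalis female 1 or female 2 the tob2 difference was 2.49 and 2.24 and no longer passed (adjusted p = 0.0956 and 0.15, edgeR). The mRNA of bicc1 was more vegetal in X. tropicalis, with a difference of -1.60 ± 0.15 as X. laevis minus X. tropicalis (adjusted p = 0.000414, edgeR), with both X. tropicalis pairs above all 4 X. laevis pairs. Its call held in all 10 alternatives, with adjusted p from 8.29e-17 (DESeq2) to 0.0157. For parn the difference of 0.59 ± 0.35 did not pass (adjusted p = 0.313, edgeR), but without batch B_t1 it was 0.90 ± 0.13 (adjusted p = 0.000897). The other 6 differences lay between -0.31 (tob1) and 0.28 (btg4), and their 95% intervals reached from -0.67 (cnot7) to 0.83 (cnot6l).

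**Figure D3:**
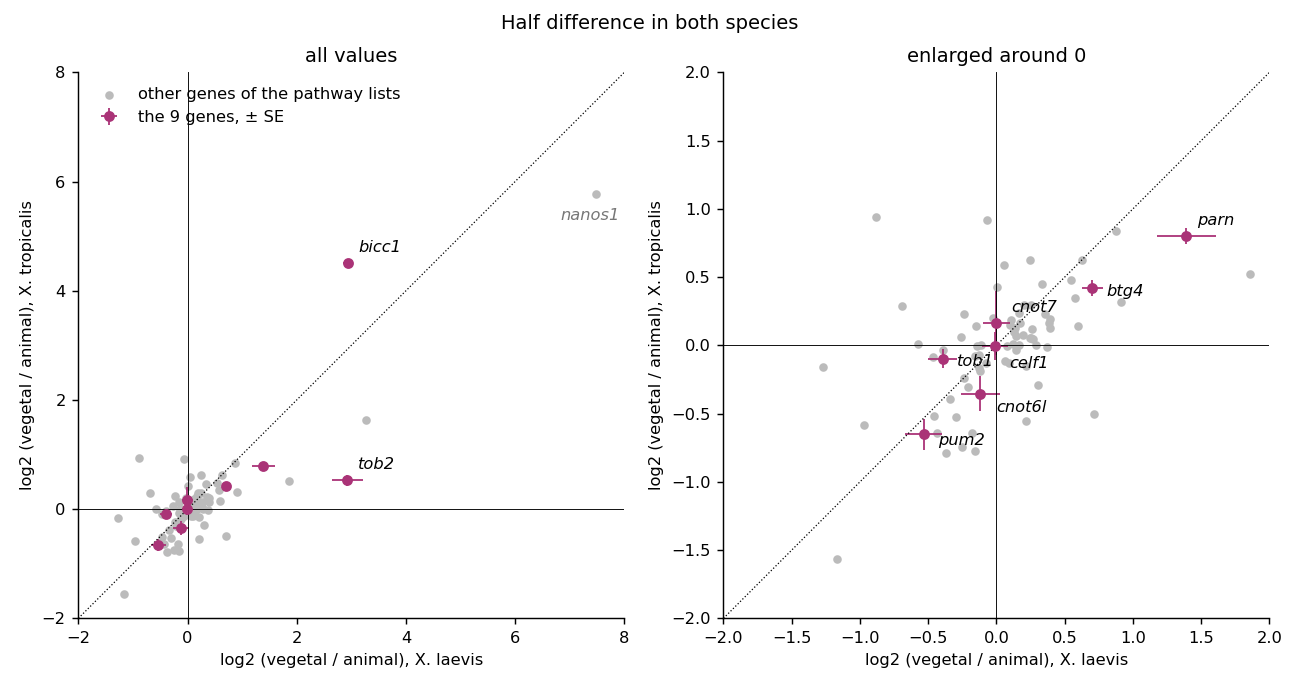
Log2 ratio of vegetal to animal level in X. laevis (horizontal) against X. tropicalis (vertical) for the 9 genes with their SE, and for the other genes of the pathway lists in grey; the right panel enlarges the values around 0. The dotted line marks equal differences: tob2 lies below it and bicc1 above it, and the remaining members lie nearer to it.

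Mean levels over all libraries of a species are set side by side for the same gene models, from separately scaled libraries. Counts of both species were given under X. tropicalis model identifiers, and how X. laevis reads were assigned to them is not stated. The share of X. laevis reads assigned to each model enters these levels. Mean levels were 14.9 CPM in X. laevis and 91.3 in X. tropicalis for tob1, and 445 and 1284 CPM for btg4. They were 18.0 and 3.76 CPM for cnot7, 56.5 and 18.7 for cnot6l, and 85.9 and 28.2 for celf1. For parn they were 727 and 543 CPM. The ranges over libraries of tob1, btg4, cnot7, cnot6l and celf1 did not overlap between the species, 5 of 9 members where 58.9% of 11688 models did not, and those of tob2, parn, pum2 and bicc1 did. In a current X. laevis gene table, 8 of the 9 symbols had both an L and an S homeologous copy, and cnot7 was found as an S copy alone. The counts give 1 value for both copies, and related genes such as tob1 and tob2, or cnot7 and cnot8, could share reads.

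The rest of the pathway was read from lists of other genes. Their counts stand beside shares over all models of 13.2% vegetal and 14.4% animal in X. laevis. In X. tropicalis these shares were 15.6% and 17.3%. Of 8 other CCR4-NOT subunits tested, 1 was vegetal and 2 were animal in X. laevis, and 1 and 4 in X. tropicalis. The scaffold cnot1 was animal in both (log2 difference -0.97 ± 0.10 and -0.58 ± 0.06; 838 and 430 CPM, and 215 and 140.5 CPM, in animal and vegetal hemispheres), and the ubiquitin ligase cnot4 was vegetal in both (0.62 ± 0.09 and 0.62 ± 0.07). The subunit c2orf29, also known as cnot11, was animal in both (-0.46 ± 0.08 and -0.52 ± 0.08), and cnot10 led in X. tropicalis (-0.75 ± 0.06). The paralog of cnot7, cnot8, did not pass in either species (0.21 ± 0.07, adjusted p = 0.0559, and -0.15 ± 0.07, adjusted p = 0.0749, edgeR). The medians were -0.10 and -0.16.

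Of 9 genes of the PAN2-PAN3 deadenylase and poly(A)-binding proteins, 3 were vegetal and 0 animal in X. laevis, and 3 and 1 in X. tropicalis. The embryonic poly(A)-binding protein pabpc1l was vegetal in both (0.88 ± 0.09 and 0.84 ± 0.06), as was the adaptor subunit pan3 (0.54 ± 0.09 and 0.48 ± 0.09). The nuclear pabpn1 was vegetal in both (0.36 ± 0.09 and 0.23 ± 0.08). The translational activator paip1 was animal in X. tropicalis (-0.55 ± 0.06) and not called in X. laevis (0.21 ± 0.08). Its difference between the species passed (adjusted p = 0.00415, edgeR). The list medians were 0.15 and 0.07.

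Of 4 other BTG genes, 1 was vegetal and 1 animal in X. laevis, and 3 and 1 in X. tropicalis, with medians of 0.23 and 0.29. A pair of them had opposite signs in the species. The mRNA of btg5 was animal in X. laevis (-0.88 ± 0.14, with means of 15.4 and 9.21 CPM in animal and vegetal hemispheres). The X. laevis ranges overlapped, at 4.83 to 25.9 CPM in animal and 2.11 to 17.7 CPM in vegetal libraries. In X. tropicalis btg5 was vegetal (0.94 ± 0.18, 5.10 and 10.3 CPM). The difference between the species was -1.86 ± 0.28 (adjusted p = 0.00347, edgeR species interaction). The mRNA of btg2 was vegetal in X. laevis at 1.83 and 3.02 CPM (0.71 ± 0.15) and animal in X. tropicalis at 192 and 136 CPM (-0.50 ± 0.06), a difference of 1.21 ± 0.15 (adjusted p = 0.00167, edgeR). The mRNA of btg3 was called in X. tropicalis (0.29 ± 0.07) and not in X. laevis (0.25 ± 0.12).

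Of genes related to the Pumilio repressors, nanos1, a germ plasm mRNA whose protein is a partner of Pumilio, was strongly vegetal in both species (7.48 ± 0.26 and 5.77 ± 0.10). It was more so in X. laevis (1.66 ± 0.37, adjusted p = 0.02, edgeR). The Pumilio-like kiaa0020 was called in X. tropicalis (0.15 ± 0.06, adjusted p = 0.0496, edgeR) and not in X. laevis (0.10 ± 0.08, adjusted p = 0.38, edgeR).

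Of CELF and AU-rich element binders, 2 of 9 tested were vegetal and 0 animal in X. laevis, and 3 and 1 of 7 in X. tropicalis, with medians of -0.12 and 0.23. The deadenylation-promoting zfp36l2 was vegetal in both (1.86 ± 0.12 and 0.52 ± 0.14), and more so in X. laevis (1.32 ± 0.20, adjusted p = 0.00353, edgeR). The celf1 paralog celf2 was called vegetal in X. laevis at 0.410 and 1.44 CPM (1.80 ± 0.31). In X. tropicalis, khsrp was animal (-0.64 ± 0.06) and elavl1 vegetal (0.23 ± 0.08). Neither was called in X. laevis (-0.18 ± 0.11 and -0.24 ± 0.12), and neither difference between the species passed (adjusted p = 0.113 and 0.188, edgeR). The Argonaute and TNRC6 list, whose proteins recruit CCR4-NOT for microRNAs, had 0 vegetal and 1 animal of 7 in X. laevis, eif2c2 (-0.57 ± 0.11), also known as ago2. In X. tropicalis it had 1 and 2 of 7, tnrc6a (-0.78 ± 0.11) and tnrc6c (-0.53 ± 0.18) being animal and eif2c1 vegetal (0.92 ± 0.28, at 1.93 and 3.74 CPM). Between the species the difference of eif2c1 passed (adjusted p = 0.0383, edgeR). Those of eif2c2, tnrc6a and tnrc6c did not (adjusted p = 0.0918, 0.0991 and 0.72, edgeR). The medians of that list were -0.21 and -0.24.

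Downstream of deadenylation, 17 decapping and decay genes held 1 vegetal and 3 animal calls in X. laevis and 3 and 2 in X. tropicalis, with medians of 0.11 and 0.06. The mRNA of lsm4, a subunit of the LSM ring, was vegetal in both species (3.27 ± 0.16, from 12.3 to 122 CPM, and 1.62 ± 0.10, from 18.7 to 57.1 CPM). It was more so in X. laevis (1.655 ± 0.257, adjusted p = 0.00415, edgeR). The decapping activator dcp1a was animal in X. laevis (-1.27 ± 0.08) and less so in X. tropicalis (-0.16 ± 0.06), a difference of -1.12 ± 0.11 (adjusted p = 0.000661, edgeR). The decapping scaffold edc4 was animal in both (-0.44 ± 0.08 and -0.64 ± 0.06). The helicase ddx6 was called vegetal in X. tropicalis (0.59 ± 0.07) and not in X. laevis (0.05 ± 0.11). Its difference between the species did not pass (adjusted p = 0.0882, edgeR).

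On the opposing side, 13 polyadenylation genes held 4 vegetal and 2 animal calls in X. laevis and 2 and 1 in X. tropicalis, with medians of 0.25 and 0.00. The poly(A) polymerase papola was vegetal in both (0.91 ± 0.10 and 0.32 ± 0.06), and more so in X. laevis (0.59 ± 0.15, adjusted p = 0.0346, edgeR). The element-binding protein cpeb1 passed in X. tropicalis (0.62 ± 0.06) and not in X. laevis (0.25 ± 0.09, adjusted p = 0.0788, edgeR). The cleavage factor cpsf4 was called vegetal in X. laevis (0.60 ± 0.11) and not in X. tropicalis (0.14 ± 0.07). The differences of cpeb1 and cpsf4 between the species did not pass (adjusted p = 0.129 and 0.112, edgeR). The mRNA of cpsf1 was animal in both (-0.37 ± 0.08 and -0.79 ± 0.19). Of 6 maternal mRNAs known as targets of CELF1, Pumilio or BICC1, 4 were vegetal and 1 animal in X. laevis and 2 and 1 in X. tropicalis, with medians of 0.38 and 0.16. The mitotic kinase aurka was animal in both (-1.17 ± 0.20 and -1.56 ± 0.06) and the cyclin ccnb1 vegetal in both (0.58 ± 0.09 and 0.35 ± 0.06). The motor kif11 was called vegetal in X. laevis (0.39 ± 0.08) and not in X. tropicalis (0.13 ± 0.06). The kinase cdk2 was called vegetal in X. tropicalis (0.20 ± 0.06) and not in X. laevis (-0.02 ± 0.07). Neither difference between the species passed (adjusted p = 0.212 for kif11 and 0.204 for cdk2, edgeR).

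**Figure D4:**
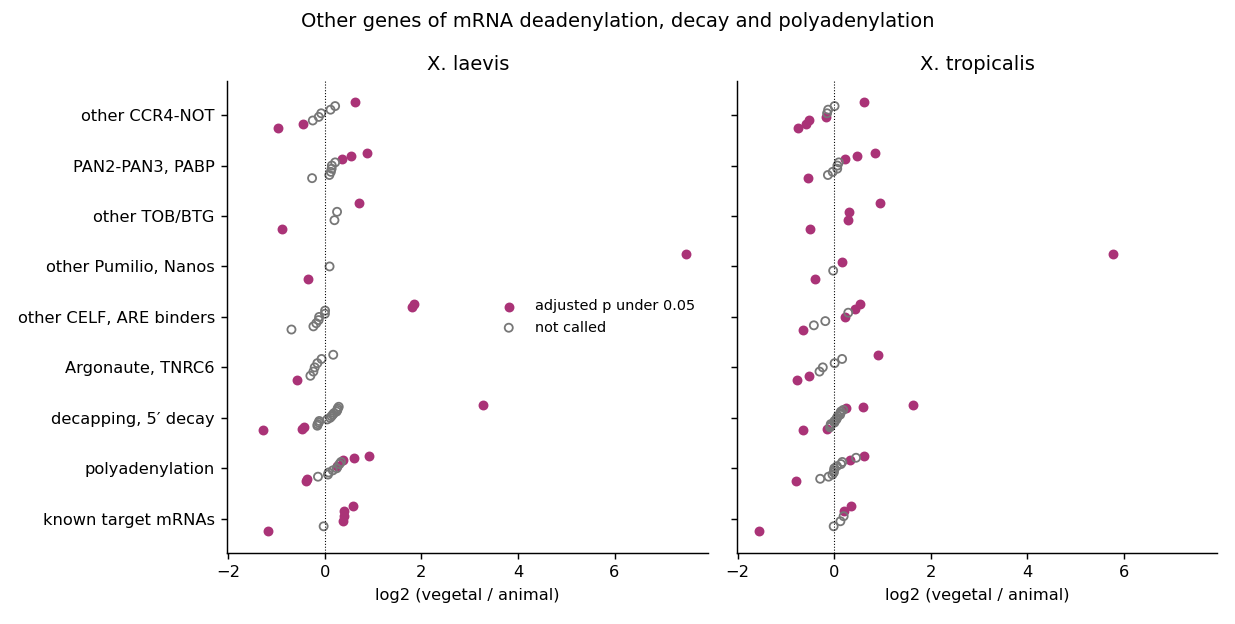
Log2 ratio of vegetal to animal level for the other genes of deadenylation, decay and polyadenylation, each point being a gene model, filled where its adjusted p was under 0.05. Most points of each list lie near 0 in both species, with nanos1 and lsm4 far to the vegetal side.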

How the data were processed

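RNA from animal and vegetal oocyte hemispheres was sequenced in 8 X. laevis and 4 X. tropicalis libraries. Per the labels' protocols, hemispheres were frozen and RNA was purified with proteinase K, phenol-chloroform and lithium chloride, and libraries were made by standard Illumina methods. Among tools, Bowtie2 2.1.0, edgeR and DESeq stand in the submitters' processing notes, with no role. No source used here states the genome build, the counting program or the strand setting. The deposited files hold raw read counts for 28165 models with X. tropicalis identifiers.

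Tests used edgeR 4.0.16 (R 4.3.3) after filterByExpr and TMM scaling per species, with the quasi-likelihood test and Benjamini-Hochberg adjustment over all models tested. CPM used TMM-scaled library sizes, and single-pair values and correlations used log2 CPM with a prior count of 2. SEs were derived from the F statistic. Groups, batches and females came from the labels, which tie both hemispheres to a batch (X. laevis) or female (X. tropicalis); these were blocks. As a check of the pairing, the 2 libraries of a pair deviated together from the means of their groups (r of 0.701 to 0.844 for X. laevis batches, 0.797 for X. tropicalis females). Libraries from the other batch of a female correlated much the same, at 0.755 to 0.833. The check therefore could not tell the batches of 1 X. laevis female apart, and its lowest r, 0.701, was that of batch B_t1. No libraries were copies of each other (chi-square per degree of freedom at least 12). Batches of 1 female are not separate animals. X. tropicalis SEs and p-values rest on 1 residual degree of freedom and a prior of 162 pooled across models. They therefore hardly measure the spread between the 2 X. tropicalis females. The species interaction assumed 1 spread per model for both species, although the common BCV (biological spread) was 0.132 for X. laevis against 0.0468 for X. tropicalis.

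Members and lists were chosen with earlier results of these data known. Beyond the members, the text names at most the 3 genes with the lowest adjusted p of each list and species, genes with the highest Pearson r to members at least 2-fold in X. laevis, and cnot8, chosen after its values were seen. List genes were matched by symbol; 14513 models (51.5%) had one. No gene lengths were used, so levels of different genes are not compared. Alternatives were library totals, RLE factors, DESeq2 1.42.0, other filters, no block, and left-out libraries. The tests were run on simulated data with 200 changed models. Each simulated comparison had 1 spread for all its libraries, so the unequal spread of the species was not checked. Figures were drawn with matplotlib 3.10.9. No sequences were used here. 1 gene of the lists is not reported here.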

Additional observations from a re-analysis of the deposited data

Results flagged for a closer look

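The animal library of X. laevis batch B_t1 stood apart for cnot6l, at 65.5 CPM against 55.4 to 57.0 CPM in the other 3 animal libraries. Its gap to the next library was 0.836 of the group's range, over the limit of 0.829 for 4 libraries. This was 1 of 18 groups examined, and chance flags about 1 in 20. The vegetal library of the same batch was the lowest of its group for cnot6l, at 41.0 CPM.

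The hemisphere effect differed between the species for tob2 and for bicc1. For tob2 it was larger in X. laevis by 2.38 on the log2 scale, where animal libraries were at 25.6 ± 5.12 CPM and vegetal ones at 200.5 ± 68.0 CPM (SD, n = 4), against 21.5 ± 2.78 and 31.5 ± 0.337 CPM in X. tropicalis (SD, n = 2). For bicc1 the X. laevis effect minus the X. tropicalis effect was -1.60, with 56.7 ± 6.75 and 433 ± 52.0 CPM in X. laevis (SD, n = 4) and 35.8 ± 1.58 and 830.5 ± 76.5 CPM in X. tropicalis (SD, n = 2).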

How the results depend on the processing

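The 4 vegetal X. laevis calls (bicc1, tob2, parn, btg4) held in all 12 alternatives. The 2 animal ones did not: with no replicate block or with female B alone 1 remained in number, with female A alone 0, and without 1 batch 0 to 2. Of all X. laevis models, 14% passed with no block, 13.9% with female B alone and 18.2% with female A alone. Without 1 batch it was 11.8% to 29.4%, against 27.7% in the main fit. The paired X. tropicalis calls leaned on the block: with no block, 1 vegetal (bicc1) and 0 animal members passed, where 2.03% of all models passed. Fits without 1 library had no block and assumed the lone library to vary like the others, so their calls are not given. DESeq2 called 1 animal X. tropicalis member. Without 1 library cnot6l ranged from -1.17 to 0.59 in X. tropicalis, turning positive without the animal library of female 1 (0.59) or the vegetal one of female 2 (0.04), and pum2 from -1.80 to 0.64, positive without the animal library of female 1. Those fits set both hemispheres of 1 female against a single hemisphere of the other, and these genes differed between females by over 2-fold. Members called more vegetal in X. laevis than in X. tropicalis numbered 1 to 2 without 1 X. laevis batch. Of all models, 7.47% to 17.2% passed in either direction in those fits. Without X. tropicalis female 1 or female 2 the tob2 difference between the species was 2.49 and 2.24. Its difference between females B and A was -1.61 without B_t2 and -0.07 without B_t1. Of 340 alternative values of single members, 302 had the same call, or the same lack of a call, as the main fit. A call was lost in 32 and gained in 3, and 3 turned sign for a member called in the main fit. These totals include the X. tropicalis fits without 1 library, which gave all 3 turned signs and part of the lost calls. Many of the 340 belong to members not called in the main fit, whose changes of sign count among the 302.

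Over all models, the share called fell with no block from 27.7% to 14% in X. laevis, from 33% to 2.03% in X. tropicalis and from 12.5% to 3.92% in the species interaction, and DESeq2 called 17% in X. tropicalis. It was 11.8% in X. laevis without batch A_t2. The signs of cnot7 and celf1, which were not called, changed with the scaling in X. laevis. For cnot7 in X. tropicalis, with 25 to 99 counts, differences under about its interval of -0.30 to 0.63 were not detectable; with a minimum of 5 CPM it was not tested.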
